A study of Homo sapiens with 28 samples.

Results

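S100 proteins are small calcium-binding proteins of vertebrates, and 10 of their genes are described here: S100A2, S100A4, S100A6, S100A8, S100A9, S100A10, S100A11, S100A14, S100A16 and S100P. The members were taken by name and matched by Ensembl identifier, 10 of the 60483 genes of the count table. RNA was measured in 28 libraries of H1944 and A549, established human lung adenocarcinoma cell lines, all with the MGT#1-mVenus reporter, in which mVenus is a yellow fluorescent protein. H1944 had 3 libraries (A, B and C) in each of 5 groups: a high and a low mVenus gate of cells kept for 11 days with TGF-β1 at 5 ng/ml, the same 2 gates of cells kept for 11 days with GSK126 at 5 µM, and naive cells, labelled unsorted. A549 had 3 high-gate and 2 low-gate libraries under TGF-β1, 2 high-gate and 3 low-gate libraries under GSK126, and 3 naive libraries. The 28 libraries include no high-gate GSK126 library C and no low-gate TGF-β1 library B of A549. TGF-β1 is a cytokine that drives epithelial-mesenchymal transition, and GSK126 inhibits EZH2, the enzyme that writes the repressive histone mark H3K27me3. In every comparison of a treatment with naive cells, treatment and sorting therefore cannot be told apart. No day is given for the naive cells, so their time in culture may differ as well. Whether a line's reporter cells are 1 clone, or the libraries of a group separate cultures, is not stated. The p-values measure the spread between libraries, which may be technical.

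S100 proteins have no enzyme activity. Most pair up, bind calcium through EF-hand loops, and on binding expose a surface that grips other proteins, among them annexins, cytoskeletal proteins and p53. Some are also released from cells and act on receptors such as TLR4 and RAGE, and in carcinomas the family is known for opposite changes of its members as cells move between epithelial and mesenchymal states.

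Of the 10 genes, 9 lie on chromosome 1 within 1634 kb (GRCh38, GENCODE 29), and S100P lies on chromosome 4 (6693069 to 6697170, plus strand). S100A10 (151982915 to 151994390) and S100A11 (152032506 to 152047907) stand at one end of the cluster, both on the minus strand. S100A9 (153357854 to 153361027, plus strand) and S100A8 (153390032 to 153391188, minus strand) are neighbours among the 9, 29004 bases apart. S100A6 (153534599 to 153536244), S100A4 (153543613 to 153550136), S100A2 (153561108 to 153567890), S100A16 (153606886 to 153613145) and S100A14 (153614255 to 153616986) share the minus strand within 82.4 kb, and S100A16 and S100A14 are 1109 bases apart. All 10 are protein-coding genes, and reads were counted over their exons as a whole. S100A3 overlaps S100A4 on the same strand, antisense transcripts overlap S100A6 (BX470102.1) and S100A11 (AL450992.1), and S100A11 has 2 pseudogenes, S100A11P1 and S100A11P2. Without a stated strand setting of the counting, the counts of these genes are uncertain to that extent.

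The 250 bases before an annotated start of 5 of these genes are shown because S100A8, S100A9, S100A14 and S100P were the members that fell most under TGF-β1 in H1944, while S100A16 rose in both lines. The sequences are from RefSeq (GRCh38.p14), run 5′ to 3′ on the gene's own strand, and end at the base before the start. S100A8 has 3 RefSeq starts and S100A16 has 2; the windows shown are the S100A8 one with TATAAA nearest its start and the S100A16 one that holds matches, both picked after the search. Capitals mark TATAAA, the letters of a TATA box, and CACCTG or its reverse complement CAGGTG, the E-box letters read by SNAI and ZEB proteins.
S100A8 (chr1:153391074-153391323, minus strand): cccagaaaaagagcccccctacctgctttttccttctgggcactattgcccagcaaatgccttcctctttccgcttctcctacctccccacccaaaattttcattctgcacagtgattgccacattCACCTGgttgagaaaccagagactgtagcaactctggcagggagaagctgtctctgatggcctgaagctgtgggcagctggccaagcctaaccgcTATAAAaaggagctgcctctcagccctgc
S100A9 (chr1:153357604-153357853, plus strand): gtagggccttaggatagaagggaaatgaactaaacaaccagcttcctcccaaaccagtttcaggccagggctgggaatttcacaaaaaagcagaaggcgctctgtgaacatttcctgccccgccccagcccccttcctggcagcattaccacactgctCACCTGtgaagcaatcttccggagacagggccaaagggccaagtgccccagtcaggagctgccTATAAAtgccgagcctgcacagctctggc
S100P (chr4:6693628-6693877, plus strand): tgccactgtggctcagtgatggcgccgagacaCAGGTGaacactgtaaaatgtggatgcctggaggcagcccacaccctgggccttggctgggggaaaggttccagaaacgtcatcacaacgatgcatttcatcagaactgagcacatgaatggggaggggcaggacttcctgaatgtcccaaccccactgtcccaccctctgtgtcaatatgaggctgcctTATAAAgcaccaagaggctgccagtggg
S100A14 (chr1:153616326-153616575, minus strand): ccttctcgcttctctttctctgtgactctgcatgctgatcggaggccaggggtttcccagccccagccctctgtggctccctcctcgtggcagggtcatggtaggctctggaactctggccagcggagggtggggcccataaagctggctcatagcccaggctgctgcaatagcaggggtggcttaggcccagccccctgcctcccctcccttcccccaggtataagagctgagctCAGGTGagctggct
S100A16 (chr1:153613138-153613387, minus strand): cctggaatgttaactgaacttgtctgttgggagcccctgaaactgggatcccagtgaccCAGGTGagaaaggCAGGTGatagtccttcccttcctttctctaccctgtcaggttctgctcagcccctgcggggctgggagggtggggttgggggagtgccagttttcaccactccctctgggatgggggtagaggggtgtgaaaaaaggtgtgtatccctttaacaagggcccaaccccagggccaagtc
TATAAA stood 29 to 24 bases before the start shown of both S100A8 and S100A9, and 28 to 23 bases before it in S100P. Of the other S100A8 starts, 1 has no TATAAA in its window and 1 has it 126 to 121 bases before. TATAAA was not in the windows of S100A14 and S100A16. CACCTG or CAGGTG stood in each window shown, with 2 copies in that of S100A16, whose other window held none. Over the 14 RefSeq starts of the 10 members, searched on both strands, CACCTG was in 9 windows (64.3%, in 7 members) and TATAAA in 5 (35.7%, in 4 members), where the overlapping windows of S100A8 share matches. Of 35116 windows of all genes, 17.5% held CACCTG and 10.7% held TATAAA. The AP-1 letters TGANTCA were in a window of S100A2 (6.57% of all windows) and the C/EBP letters TTGCNNAA in that of S100A11 (9.05%). The NF-κB motif, in 0.527% of all windows, was in none of the 14. The windows of S100A6 and S100A10 held none of these letters. A match of letters is a description and not a measured binding site.

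Library totals ran from 1660148 to 13280592 counts in H1944 and from 2013449 to 9550143 in A549. Levels are given as CPM, a library's counts scaled to the same total in every library. Genes were tested with edgeR's quasi-likelihood test on the counts of each line, and a gene is said to rise or fall where its p, adjusted over all genes tested by the Benjamini-Hochberg method, was under 0.05. After edgeR's filter on low counts, 13621 genes were tested in H1944 with 9 members (without S100A2), 19842 in A549 with 8 members (without S100A8 and S100A9), and 17918 in both lines together with 10 members. A549 was noisier, with a biological coefficient of variation of 0.358, beside 0.0978 in H1944. In 2 A549 libraries, TGF-β1 high B with 305 CPM and naive A with 195 CPM, reads over 374 silent olfactory receptor genes stood above the other 26 libraries (3.62 to 121 CPM), and A549 calls of members that change without both are given both ways. The carcinoma keratins KRT8 and KRT18 were abundant in both lines (means of 2517 and 1259 CPM in H1944, 3339.7 and 1831 CPM in A549). The alveolar factor NKX2-1 and the surfactant genes SFTPC, SFTPA1, SFTPA2 and SFTPB each averaged under 1 CPM in both lines. These are bulk libraries, in which fewer cells with a transcript and less transcript per cell cannot be told apart.

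The members fell into different orders in naive cells of the 2 lines. Genes were compared per kilobase of all annotated exons joined, which can be longer than the transcript made. On that scale S100A9 was the highest member in naive H1944 cells at 1207 ± 82.7 CPM per kb (SD, n = 3). S100A6 followed at 726 ± 81.5, S100A10 at 433 ± 18.4 and S100A11 at 397 ± 35.1. Then came S100P at 116 ± 13.6, S100A16 at 73.3 ± 7.76, S100A8 at 58 ± 3.58 and S100A14 at 25.1 ± 1.82 CPM per kb. S100A4 stood at 3.56 ± 0.615 and S100A2 at 0.201 ± 0.177. Without division by length, S100A6 (704 CPM), S100A9 (697 CPM) and S100A10 (669 CPM) were about level. The lead of S100A9 therefore rests on the exon lengths used. In naive A549 cells S100A6 led at 2118 ± 252 CPM per kb (n = 3), and S100A10 (438 ± 64.6), S100A11 (413 ± 85.1) and S100A4 (406 ± 84.2) followed within one another's spread. S100A16 stood at 102 ± 7.87 CPM per kb there, S100P at 4.88 ± 0.901 and S100A2 at 2.21 ± 0.739, and S100A9, S100A14 and S100A8 at no more than 0.423.

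**Figure D1:**
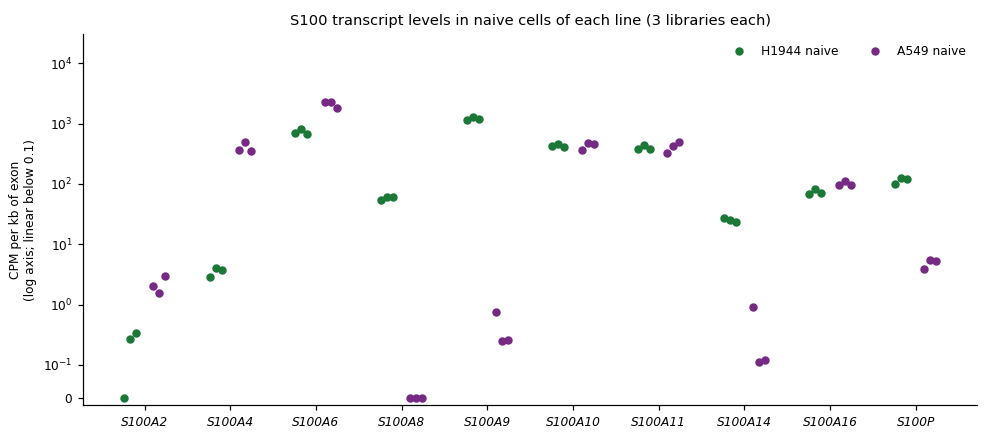
Levels per kilobase of exon (y axis, CPM per kb, logarithmic above 0.1 and linear below it) of the 10 S100 genes (x axis) in the 3 naive H1944 libraries (green) and the 3 naive A549 libraries (purple), 1 point per library. S100A9 averages 1207 CPM per kb in H1944 and 0.423 in A549, S100A4 averages 3.56 in H1944 and 406 in A549, and S100A10 and S100A11 lie at about the same height in both.

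Of the 10 members, 4 were higher and 4 were lower in naive H1944 than in naive A549 cells in the fit of both lines, in which 46.4% of all genes passed the test, 23.8% higher and 22.6% lower. The libraries of the 2 lines did not overlap for 8 of the 10, against 55.8% of all genes. S100A9, which with S100A8 forms the antimicrobial, metal-binding dimer calprotectin of neutrophils and inflamed epithelia, had 12486 counts in H1944 and 5 in A549, a ratio of CPM of 2817 (95% counting interval 1207 to 8676). S100A8 had 1082 counts in H1944 and 0 in A549, at least 407-fold higher against a floor of 3 counts over the 3 naive A549 libraries. S100P, an S100 protein that binds ezrin and can be released, averaged 149 ± 17.4 CPM in H1944 and 6.24 ± 1.15 CPM in A549 (SD, n = 3 each), a log2 difference of 4.6 ± 0.22 (SE, adjusted p = 3.45e-17). S100A14, an epithelial member, had 555 counts in H1944 and 10 in A549 (log2 difference 6.01 ± 0.66, adjusted p = 1.37e-10). In all 13 A549 libraries S100A8 summed to 7 counts and S100A9 to 12, so nothing is said of their change in that line. Here and below, ratios of CPM and the floor use counts pooled over the libraries of a group. The intervals and the floor account for counting error alone.

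The 4 members lower in naive H1944 cells were S100A4, S100A2, S100A6 and S100A16. S100A4, a binder of non-muscle myosin used as a marker of fibroblasts and of mesenchymal change, averaged 3.65 ± 0.631 CPM in H1944 and 416 ± 86.4 CPM in A549 (log2 difference −6.78 ± 0.33, adjusted p = 7.84e-17). S100A6, the calcyclin that binds the CACYBP protein, averaged 704 ± 79.1 CPM in H1944 and 2056 ± 245 CPM in A549 (−1.52 ± 0.19, adjusted p = 9.51e-08), and S100A2, a p53-binding protein of basal epithelia, 0.314 ± 0.278 and 3.46 ± 1.16 CPM in the same order (−2.98 ± 0.60, adjusted p = 4.61e-05). The difference of S100A16 was small (125 ± 13.2 CPM in H1944, 173 ± 13.4 CPM in A549; −0.45 ± 0.17, adjusted p = 0.0269), and it missed the threshold without naive A549 library B (adjusted p = 0.0503) or naive H1944 library A (adjusted p = 0.0998). S100A10 and S100A11 did not pass, at 669 ± 28.4 and 270.1 ± 23.9 CPM in H1944 and 675 ± 99.7 and 281 ± 57.9 CPM in A549. Without the 2 background-rich A549 libraries both were lower in H1944, by −0.27 (adjusted p = 0.0485) and −0.34 (adjusted p = 0.0197) on the log2 scale.

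In H1944, TGF-β1 split the family. Compared with naive cells, the 6 members S100A8, S100A9, S100P, S100A14, S100A4 and S100A6 fell and the 3 members S100A10, S100A11 and S100A16 rose, so that 9 of the 9 tested passed. The treatment was broad, since 63.7% of all 13621 genes passed in this comparison, 32.1% higher and 31.6% lower; the groups did not overlap for any of the 9 members, and for 56.4% of all genes. The median of the 9 members was −1.10 on the log2 scale, beside −0.01 for all genes tested. GSK126 moved 6 of the 9 against naive cells, 1 up (S100A4) and 5 down (S100A8, S100A9, S100P, S100A14 and S100A11), where 40.1% of all genes passed, 21.4% higher and 18.7% lower. The groups did not overlap for 5 of the 9 (31.6% of all genes), and the median of the members was −0.28, beside 0 for all genes. Compared directly, TGF-β1 and GSK126 cells differed in the same 9 members that TGF-β1 changed against naive cells and in the same directions, where 63.8% of all genes passed, 31.6% higher and 32.1% lower, and 8 of the 9 did not overlap (40.1% of all genes). The 2 comparisons share the TGF-β1 libraries.

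The calprotectin genes showed the widest changes. S100A9 had 2.27, 1.25 and 2.75 CPM in the high and 3.36, 3.01 and 4.7 CPM in the low TGF-β1 gate, 197, 169 and 197 CPM in the high and 179, 164 and 153 CPM in the low GSK126 gate, and 654, 748 and 688 CPM in naive cells. The 3 treatments did not overlap, with GSK126 cells between TGF-β1 and naive cells. Against naive cells the log2 fold change was −7.87 ± 0.22 under TGF-β1 (SE, adjusted p = 3.6e-41) and −2.10 ± 0.08 under GSK126 (adjusted p = 1.3e-25), and TGF-β1 cells stood −5.77 ± 0.21 from GSK126 cells (adjusted p = 2.17e-35). S100A8 had 0, 0 and 0.393 CPM in the high TGF-β1 gate and 0 in the 3 low-gate libraries, 7.25, 4.15 and 3.37 CPM in the high and 5.74, 7.92 and 7.48 CPM in the low GSK126 gate, and 54.2, 59.9 and 60.9 CPM in naive cells. Its 1 count in the 6 TGF-β1 libraries against 1082 in the 3 naive ones gave a ratio of CPM, naive over TGF-β1, of 877 (95% counting interval 157 to 34669; adjusted p = 2.55e-25), and under GSK126 it fell by 3.36 ± 0.19 on the log2 scale (adjusted p = 1.68e-20).

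Calprotectin is a hallmark of myeloid cells, so their markers were read in the same libraries. The 14 myeloid markers together summed to between 6.8 and 16.9 CPM in TGF-β1 libraries of H1944, 4.32 and 23.6 CPM in GSK126 libraries, and 4.57 and 7.68 CPM in naive ones. In the naive libraries, where S100A9 had 12486 counts, LYZ had 4 counts, MPO 1, CSF3R 7 and PTPRC 14. Only 1 of the 14 markers, CSF1R, passed the filter in H1944, and it rose under TGF-β1. The sum of the 12 lung epithelial markers ran from 1498 to 1736 CPM in TGF-β1, from 4947 to 7668 in GSK126 and from 4973 to 5605 in naive H1944 libraries. KRT8 (3015 CPM) and KRT18 (1716 CPM) made up most of the sum in naive cells. All 5 tested epithelial markers fell under TGF-β1, led by CDH1, the E-cadherin gene (13.2 ± 4.79 CPM, n = 6, against 271 ± 5.73 CPM in naive cells, n = 3; log2 fold change −4.36 ± 0.13). Under GSK126, 2 of the 5 fell and 0 rose, where 18.7% of all genes fell and 21.4% rose. CDH1 was among the fallen, at a mean of 97.3 CPM (log2 fold change −1.64, adjusted p = 1.12e-20). Whether the fall of S100 genes depends on that of the epithelial markers was not tested.

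S100P and S100A14 followed the calprotectin genes. S100P stood at 3.62, 1.67 and 3.54 CPM in the high and 3.36, 2.41 and 4.7 CPM in the low TGF-β1 gate, at 50.1, 42.2 and 58.3 CPM in the high and 65.7, 53.7 and 47.5 CPM in the low GSK126 gate, and at 129, 161 and 156 CPM in naive cells. The order of the 3 treatments was that of S100A9, again without overlap. Its log2 fold change from naive cells was −5.44 ± 0.24 under TGF-β1 (adjusted p = 1.45e-30) and −1.62 ± 0.11 under GSK126 (adjusted p = 3.59e-17). S100A14 had 0, 2.08 and 0.393 CPM in the high and 1.22, 1.2 and 1.57 CPM in the low TGF-β1 gate, 22.4, 22.1 and 16.4 CPM in the high and 26.2, 25.5 and 23.6 CPM in the low GSK126 gate, and 34.5, 32 and 29.8 CPM in naive cells. It fell by 4.79 ± 0.40 under TGF-β1 on the log2 scale (adjusted p = 1.75e-20), while the step under GSK126 was small (−0.59 ± 0.16, adjusted p = 0.00226) and missed the threshold in the low gate alone (adjusted p = 0.0509) and in a fit of all 28 libraries (adjusted p = 0.178).

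**Figure D2:**
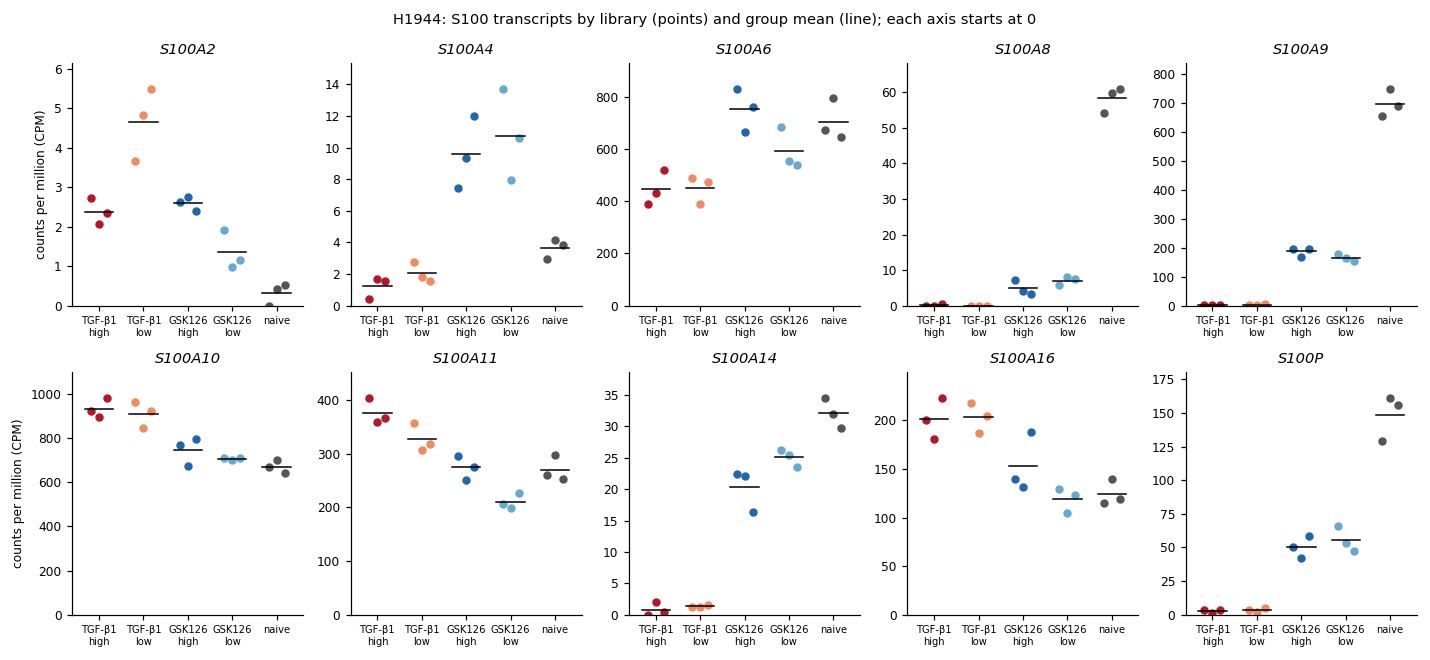
Level of each S100 gene (y axis, CPM, from 0) in the 15 H1944 libraries, grouped on the x axis as TGF-β1 high and low gate, GSK126 high and low gate, and naive; points are libraries and black lines the means of 3. S100A8, S100A9, S100A14 and S100P step up from TGF-β1 over GSK126 to naive cells, S100A10, S100A11 and S100A16 are highest under TGF-β1, and S100A4 is highest under GSK126.

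S100A4 fell under TGF-β1 and rose under GSK126 in H1944. It had 0.453, 1.67 and 1.57 CPM in the high and 2.75, 1.81 and 1.57 CPM in the low TGF-β1 gate, 7.47, 9.33 and 12 CPM in the high and 13.7, 7.92 and 10.6 CPM in the low GSK126 gate, and 2.94, 4.16 and 3.84 CPM in naive cells. The GSK126 libraries were all above the naive ones and the TGF-β1 libraries all below them. S100A4 rose under GSK126 (log2 fold change 1.30 ± 0.30, adjusted p = 0.00046) and fell under TGF-β1 (−1.10 ± 0.42, adjusted p = 0.0139), and the 2 treatments stood −2.40 ± 0.36 apart, TGF-β1 over GSK126 (adjusted p = 6.33e-09). The counts were few, 25 over the 6 TGF-β1 libraries, 198 over the 6 GSK126 libraries and 68 over the 3 naive ones. The fall under TGF-β1 missed the threshold in the low gate alone (adjusted p = 0.166) and without naive library C (adjusted p = 0.0827).

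S100A2 was too low for the test in H1944, and its counts ran the other way from those of S100A8 and S100A9. It summed to 51 counts in the 6 TGF-β1 libraries, 39 in the 6 GSK126 libraries and 8 in the 3 naive libraries, at means of 3.52 ± 1.39, 1.98 ± 0.762 and 0.314 ± 0.278 CPM (SD). With counts pooled over libraries, the levels were 3.48 CPM under TGF-β1, 1.93 CPM under GSK126 and 0.443 CPM in naive cells. The ratio of these pooled CPM to naive cells was 7.87 under TGF-β1 (95% counting interval 3.71 to 19.2) and 4.36 under GSK126 (2.01 to 10.8). Naive library C, the deepest, held 7 of the 8 naive counts. With no filter on low counts S100A2 passed under TGF-β1 (log2 fold change 2.82, adjusted p = 0.000429) and not under GSK126 (adjusted p = 0.0576). With a filter at 1 CPM it passed under both (2.88, adjusted p = 0.000118, and 1.94, adjusted p = 0.0195), as in a fit of all 28 libraries (2.93, adjusted p = 3.16e-05, and 1.99, adjusted p = 0.00717). S100A6 fell slightly under TGF-β1, to 449 ± 53.6 CPM (n = 6), against 704 ± 79.1 CPM in naive cells (n = 3; log2 fold change −0.58 ± 0.10, adjusted p = 1.08e-05), and the groups did not overlap. Under GSK126 it averaged 672 ± 114 CPM and did not pass (adjusted p = 0.132), except in the low gate alone, which fell by 0.37 on the log2 scale (adjusted p = 0.0151), and without low-gate library A (log2 fold change −0.26, adjusted p = 0.0309).

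S100A10, S100A11 and S100A16 rose under TGF-β1 in H1944. S100A10, or p11, which binds annexin A2 and helps plasminogen activation at the cell surface, had 921, 893 and 980.0 CPM in the high and 964, 845 and 922 CPM in the low TGF-β1 gate, 766, 674 and 797 CPM in the high and 711, 698 and 711 CPM in the low GSK126 gate, and 667, 698 and 641 CPM in naive cells. Every TGF-β1 library was above every GSK126 and naive library, and the change was small (log2 fold change against naive cells 0.53 ± 0.07, adjusted p = 5.45e-08). GSK126 and naive cells overlapped and did not differ by the test (adjusted p = 0.975). S100A11, or calgizzarin, which binds annexin A1, averaged 352 ± 34.9 CPM under TGF-β1 (n = 6), 242 ± 38.7 CPM under GSK126 (n = 6) and 270.1 ± 23.9 CPM in naive cells (n = 3). It rose under TGF-β1 (0.45 ± 0.08, adjusted p = 9.57e-06; adjusted p = 0.0716 in a fit of all 28 libraries) and fell under GSK126 (−0.28 ± 0.08, adjusted p = 0.00575). The call under GSK126 was lost in the high gate alone (−0.08, adjusted p = 0.522), with library totals in place of TMM factors (−0.16, adjusted p = 0.105), in a fit of all 28 libraries (−0.33, adjusted p = 0.147) and without naive library B (−0.22, adjusted p = 0.0616). With library totals the median of all genes moved by 0.12 in that comparison and by −0.18 between TGF-β1 and GSK126 cells.

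S100A16, a widely expressed member, had 200.2, 181 and 223 CPM in the high and 218, 187 and 205 CPM in the low TGF-β1 gate of H1944, 140.0, 132 and 188 CPM in the high and 129.8, 105 and 123 CPM in the low GSK126 gate, and 115, 139.7 and 119 CPM in naive cells. The TGF-β1 libraries were all above the naive ones, and GSK126 and naive cells overlapped. It rose by 0.78 ± 0.10 on the log2 scale against naive cells under TGF-β1 (adjusted p = 9.46e-09) and by the same 0.78 ± 0.08 against GSK126 cells (adjusted p = 3.3e-11), and did not pass under GSK126 (adjusted p = 0.993). S100A16 and S100A14, whose genes are 1109 bases apart on the same strand, thus changed in opposite directions under TGF-β1.

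**Figure D3:**
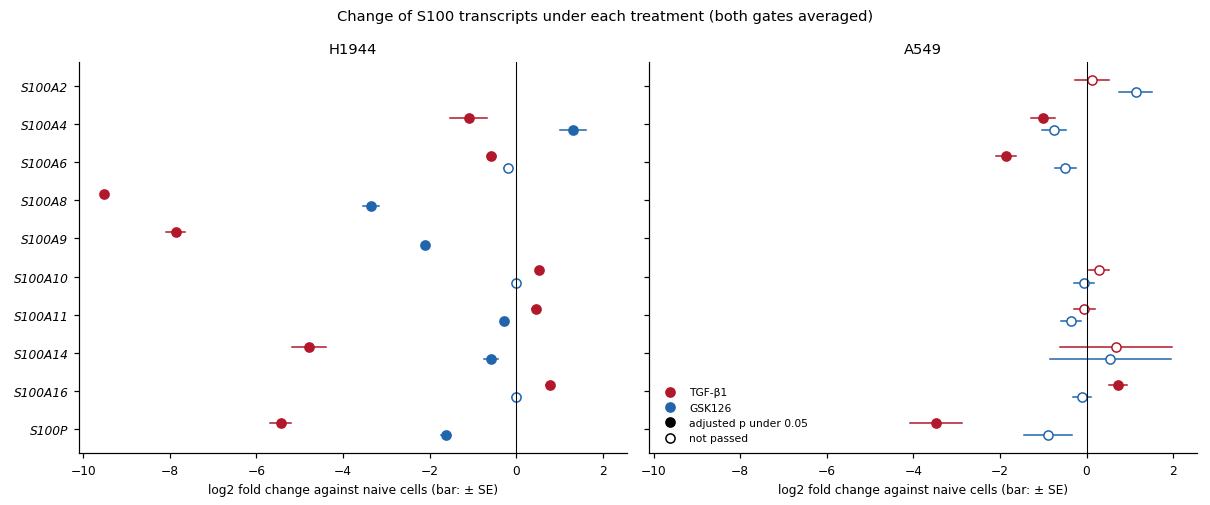
Log2 fold change against naive cells (x axis, mean of both gates, bars ± SE) of each S100 gene (rows) under TGF-β1 (red) and GSK126 (blue) in H1944 (left) and A549 (right); filled points passed the test. S100A2 in H1944 and S100A8 and S100A9 in A549 were too low to be tested, and S100A8 under TGF-β1 in H1944 (−9.52, from 1 count) has no bar. S100P is at −5.44 in H1944 and −3.48 in A549 under TGF-β1, and S100A16 at 0.78 and 0.73.

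In A549, TGF-β1 changed 4 of the 8 members tested against naive cells, where 19.3% of all 19842 genes passed, 7.77% higher and 11.5% lower: S100P, S100A6 and S100A4 fell and S100A16 rose. The groups did not overlap for 5 of the 8, against 27.3% of all genes. Their median was 0.04 on the log2 scale, beside 0.05 for all genes. S100P had 0.333, 1.11 and 0.209 CPM in the high and 0.781 and 0.78 CPM in the low TGF-β1 gate, 3.82 and 3.14 CPM in the high and 2.93, 5.96 and 2.59 CPM in the low GSK126 gate, and 4.93, 7.09 and 6.71 CPM in naive cells. All 5 TGF-β1 libraries were below all others, on 19 counts in total against 127 in naive cells, and the log2 fold change from naive cells was −3.48 ± 0.60 (adjusted p = 0.000173). Between TGF-β1 and GSK126 cells the log2 difference of S100P was −2.58 ± 0.56 (adjusted p = 0.00203).

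S100A6, the most abundant member in naive A549 cells, had 682, 506 and 765 CPM in the high and 539 and 687 CPM in the low TGF-β1 gate, 1956 and 1469.6 CPM in the high and 1482, 1341 and 1335 CPM in the low GSK126 gate, and 2172, 2222 and 1775 CPM in naive cells. TGF-β1 libraries were below all others, and GSK126 libraries overlapped naive ones. It fell by 1.86 ± 0.24 on the log2 scale against naive cells (adjusted p = 7.46e-06) and stood −1.36 ± 0.21 from GSK126 cells (adjusted p = 0.0001). S100A4 averaged 233 ± 40.8 CPM under TGF-β1 (n = 5) and 416 ± 86.4 CPM in naive cells (n = 3), a log2 fold change of −1.01 ± 0.28 (adjusted p = 0.011), which missed the threshold without naive library B (−0.69, adjusted p = 0.114) and in the low gate alone (adjusted p = 0.0713). S100A16 had 339.5, 296 and 386 CPM in the high and 306 and 308 CPM in the low TGF-β1 gate, 194 and 188 CPM in the high and 164, 148 and 151 CPM in the low GSK126 gate, and 165, 189 and 166 CPM in naive cells. The TGF-β1 libraries did not overlap the others. Its log2 fold change was 0.73 ± 0.21 against naive cells (adjusted p = 0.0211), lost without TGF-β1 high library A (0.69, adjusted p = 0.0524) or naive library C (0.71, adjusted p = 0.0799) and with no filter on low counts (adjusted p = 0.2). Against GSK126 cells it was 0.83 ± 0.19 (adjusted p = 0.00324, and 0.0592 without GSK126 high library B).

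The other 4 members tested did not pass against naive cells under TGF-β1 in A549. S100A10 averaged 942 ± 69.6 CPM under TGF-β1 (n = 5) and 675 ± 99.7 CPM in naive cells (n = 3; adjusted p = 0.541), and it passed with DESeq2 (log2 fold change 0.38, adjusted p = 0.0421) and with library totals (0.48, adjusted p = 0.0061), which moved the median of all genes by 0.15. S100A11 averaged 311 ± 31.1 and 281 ± 57.9 CPM in the same order (adjusted p = 0.958), and S100A2 4.29 ± 0.862 and 3.46 ± 1.16 CPM (adjusted p = 0.931). S100A14 had 25 counts under TGF-β1, 14 under GSK126 and 10 in naive A549 cells, of which the background-rich libraries held 10 (TGF-β1 high B) and 8 (naive A).

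Between TGF-β1 and GSK126 cells of A549, 4 of the 8 members passed, where 19.7% of all genes did, 8.01% higher and 11.7% lower: S100P, S100A6 and S100A16 as given above, and S100A2. For 6 of the 8 the libraries did not overlap, against 19.8% of all genes. S100A2 averaged 4.29 ± 0.862 CPM under TGF-β1 and 7.84 ± 1.41 CPM under GSK126 (n = 5 each; log2 difference −1.01 ± 0.34, adjusted p = 0.042). That call was lost when any 1 of 8 libraries was left out, which were TGF-β1 high C, TGF-β1 low A and C, GSK126 high A and B, and GSK126 low A, B and C (adjusted p from 0.0628 to 0.208). S100A10 and S100A11 did not pass, at 942 ± 69.6 and 311 ± 31.1 CPM under TGF-β1 and 679 ± 94.0 and 231 ± 27.3 CPM under GSK126. Without the 2 background-rich libraries both passed (log2 differences 0.51, adjusted p = 0.000498, and 0.49, adjusted p = 0.000842).

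**Figure D4:**
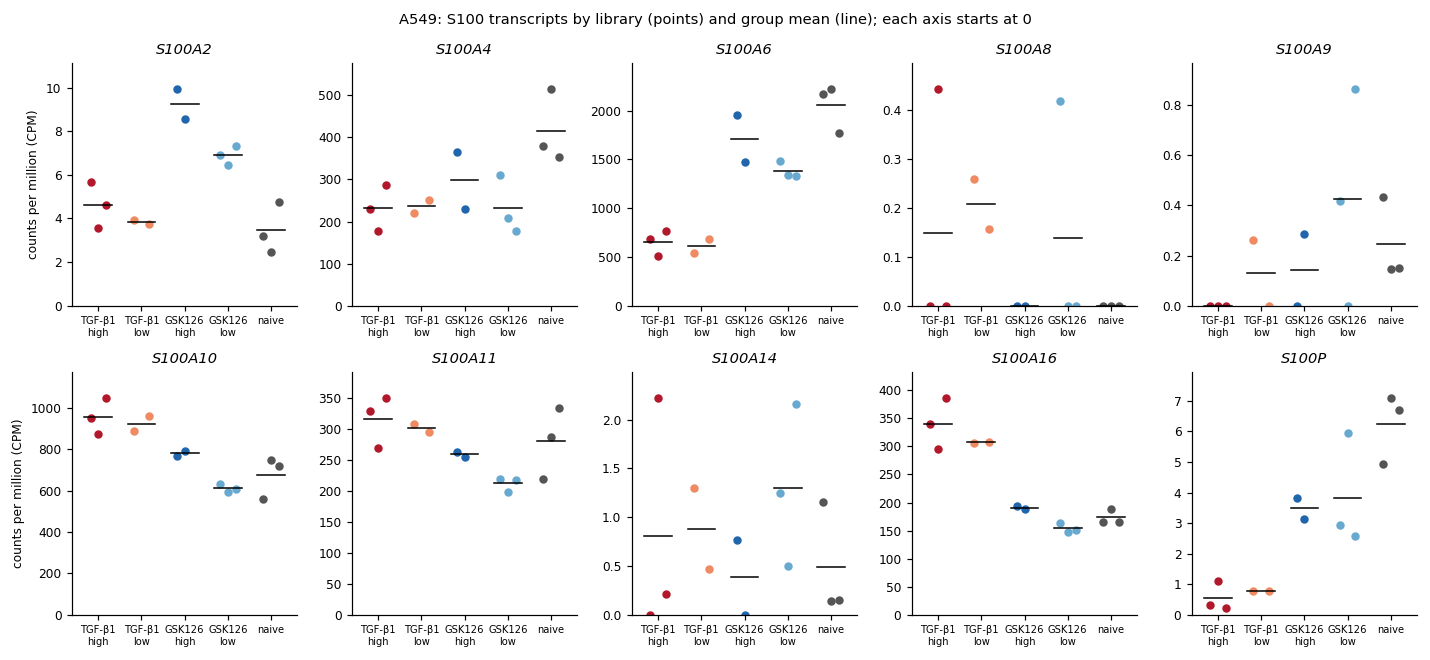
Level of each S100 gene (y axis, CPM, from 0) in the 13 A549 libraries, grouped on the x axis as TGF-β1 high and low gate, GSK126 high and low gate, and naive; points are libraries and black lines group means of 2 or 3. S100A6 and S100P are lowest and S100A16 highest under TGF-β1, and the axes of S100A8, S100A9 and S100A14 span only a few counts.

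GSK126 changed none of the 8 members against naive cells in A549 by edgeR's test, where 6.87% of all genes passed, 3.66% higher and 3.21% lower, and 1 member, S100A2, did not overlap (16.5% of all genes). At an unadjusted p, 2 were under 0.05, S100A2 (7.84 ± 1.41 CPM under GSK126, n = 5, and 3.46 ± 1.16 CPM in naive cells, n = 3) and S100A4 (258 ± 77.2 and 416 ± 86.4 CPM). This count depended on the fit. DESeq2 called 3 members, limma-voom 4, a fit of all 28 libraries 3, and edgeR without the 2 background-rich libraries 4. In that last fit S100A2 was higher (log2 fold change 1.03, adjusted p = 0.0437), and S100A4 (−0.87, adjusted p = 0.0109), S100A6 (−0.52, adjusted p = 0.0198) and S100A11 (−0.53, adjusted p = 0.00507) were lower under GSK126. Leaving out naive library A alone gave 2 members, S100A4 and S100A11 (adjusted p = 0.0335 each).

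Whether the 2 lines answered differently was tested as a difference of the 2 effects, H1944 minus A549, in the fit of both. For GSK126 this passed for S100A4 (2.03 ± 0.39 on the log2 scale, adjusted p = 0.000464), where 9.92% of all genes passed, 6.17% higher and 3.75% lower. S100A4 averaged 10.2 ± 2.42 CPM under GSK126 (n = 6) and 3.65 ± 0.631 CPM in naive cells (n = 3) of H1944, and 258 ± 77.2 CPM (n = 5) and 416 ± 86.4 CPM (n = 3) in A549. For TGF-β1 it passed for 5 members, where 20.0% of all genes did, 10.5% higher and 9.43% lower. S100P fell further in H1944 than in A549 (difference −2.12 ± 0.46, adjusted p = 0.00238), and S100A14 fell in H1944 and stood at few counts in A549 (−5.53 ± 0.92, adjusted p = 8.28e-06). The difference of S100P missed the threshold without A549 TGF-β1 high library B (−1.71, adjusted p = 0.0541) and without both background-rich libraries (−1.49, adjusted p = 0.0831). S100A6 fell less in H1944 (1.13 ± 0.24, adjusted p = 0.000609), and S100A2 stood higher under TGF-β1 in H1944 relative to A549 (2.75 ± 0.70, adjusted p = 0.00216). The fifth, S100A8, rests on 5 counts in TGF-β1 and 0 in naive A549 libraries, and its call was lost without A549 TGF-β1 high library B (adjusted p = 1) and without both background-rich libraries (adjusted p = 1). The difference of S100A9 did not pass, at a fitted −5.93 with 2 counts in TGF-β1 and 5 in naive A549 libraries. It passed in 3 of 27 alternative settings. The difference of S100A4 passed in none. For S100A10, S100A11 and S100A16 the difference did not pass (adjusted p = 0.845, 0.349 and 0.794). Not passing does not show that the lines acted alike. S100A11 passed without naive A549 library A (0.57, adjusted p = 0.043), without both background-rich libraries (0.46, adjusted p = 0.0216) and with limma-voom (0.42, adjusted p = 0.018).

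Between the gates of high and low reporter, 1 member passed. In H1944 under GSK126 this was 1 of the 9 members tested, where 7.42% of all genes passed, 3.87% higher and 3.55% lower; 3 of the 9 did not overlap, against 22.0% of all genes. S100A11 had 296, 251 and 275 CPM in the high and 206, 199 and 227 CPM in the low gate, which did not overlap (log2 fold change 0.39 ± 0.10, adjusted p = 0.00835), and the call was lost without GSK126 high library A (adjusted p = 0.0964) or low library B (adjusted p = 0.117). S100A16 stood at 153 ± 30.2 CPM in the high and 119 ± 13 CPM in the low gate (n = 3 each) and did not pass (adjusted p = 0.0505); with the replicate letter as a block it did (0.36, adjusted p = 0.0418), giving 2 members. S100A6 was at 752 ± 82.9 CPM in the high and 591 ± 78.5 CPM in the low gate (adjusted p = 0.0642), and passed without low library A (adjusted p = 0.0129) or high library B (adjusted p = 0.0255), as did S100A16 (adjusted p = 0.0432 and 0.0139). Under TGF-β1 none of 9 passed by edgeR, DESeq2 or limma-voom, with 1 at an unadjusted p under 0.05 and 0.0808% of all genes called (0.0147% higher, 0.0661% lower). For 2 of the 9 the gates did not overlap, against 12.6% of all genes. In A549 none of 8 passed in either pair of gates by any of the 3 tools, with 0 at an unadjusted p under 0.05 and 0% of all 19842 genes called. The GSK126 gates of A549 did not overlap for 4 of the 8 (31.6% of all genes) and the TGF-β1 gates for none (10.7%). The difference of the H1944 gate effects, TGF-β1 minus GSK126, passed for none of 9, with 3 at an unadjusted p under 0.05 and 0.595% of all genes called (0.139% higher, 0.455% lower).

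The genes around the S100 proteins were read from lists. Of the 13 annexins, 12 were tested in H1944, and 6 rose and 6 fell under TGF-β1, where 63.7% of all genes passed. ANXA3 rose (152 ± 8.77 CPM, n = 6, against 17.1 ± 2.01 CPM in naive cells, n = 3; log2 fold change 3.23 ± 0.13), and ANXA10 (−3.33 ± 0.15) and ANXA11 (−1.44 ± 0.09) fell. ANXA2, named after its values were seen because it binds S100A10, rose with it in H1944, to 1075 ± 46.5 CPM under TGF-β1, against 554 ± 12.8 CPM in naive cells (1.03 ± 0.08, adjusted p = 1.02e-15). ANXA2 also rose under GSK126, where S100A10 did not pass (921 ± 73.8 CPM; 0.62 ± 0.08, adjusted p = 6e-09). In A549, ANXA2 did not pass under TGF-β1 (2594 ± 461 CPM, n = 5, and 2262 ± 324 CPM in naive cells, n = 3; adjusted p = 0.993), and 2 of 13 annexins rose and 6 fell, where 7.77% of all genes rose and 11.5% fell. The risen ones were ANXA8L1 (4.35 ± 0.30) and ANXA8 (4.23 ± 0.34), near-identical genes whose reads the counting may split.

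The plasminogen system, on which the complex of S100A10 and annexin A2 acts, was tested with 7 genes in each line. Under TGF-β1, 5 rose and 1 fell in H1944, where 32.1% of all genes rose and 31.6% fell, and 4 rose and 1 fell in A549, where 7.77% rose and 11.5% fell. In H1944 the protease inhibitor gene SERPINE2 stood at 744 ± 73.2 CPM under TGF-β1 and 18.9 ± 1.32 CPM in naive cells (5.39 ± 0.13), and the urokinase receptor gene PLAUR rose as well (2.73 ± 0.12). In A549, SERPINE2 (3.37 ± 0.26) and the urokinase gene PLAU (2.99 ± 0.22) rose. Under GSK126, 5 of 7 rose in H1944 (21.4% of all genes) and 4 of 7 in A549 (3.66% of all genes), and none fell.

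Of 11 genes of S100 receptors and their adaptors, 9 were tested in H1944. TLR4, a receptor of calprotectin, had 660 counts under TGF-β1 and 9 in naive cells, a ratio of CPM of 90.5 (95% counting interval 47.4 to 199). BSG, the gene of basigin, which binds S100A9, fell (355 ± 21.7 CPM under TGF-β1 and 1009 ± 111 CPM in naive cells; −1.44 ± 0.08), and its relative NPTN, the gene of neuroplastin and a receptor of S100A8, rose (1.10 ± 0.10). In all, 6 rose and 3 fell under TGF-β1 (63.7% of all genes passed) and 5 rose and 3 fell under GSK126 (40.1%). In A549 under TGF-β1 none of 10 rose and 2 fell, a share near the 19.3% of all genes that passed. Among the 18 genes of intracellular S100 partners, 8 rose and 3 fell of the 16 tested under TGF-β1 in H1944, near the 63.7% of all genes that passed. These included MYH9, the non-muscle myosin heavy chain that S100A4 binds, which rose (5849 ± 129 CPM under TGF-β1 and 885 ± 52.3 CPM in naive cells; 2.79 ± 0.08) as S100A4 fell. MYL9 (5.68 ± 0.19) and TPM1 (3.40 ± 0.09) rose too. In A549, 2 of 17 partners rose and 2 fell under TGF-β1 (19.3% of all genes passed), with TPM1 at 2.61 ± 0.24.

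Few other genes in and near the S100 cluster were high enough to be tested. Of the 11 other S100 genes in the table, 1 was tested in H1944, S100A13, which rose to 79.3 ± 9.71 CPM under TGF-β1, against 58.8 ± 2.40 CPM in naive cells (0.51 ± 0.11, adjusted p = 5.56e-05; 0.0641 in a fit of all 28 libraries). S100A12, named after its values were seen and the third calgranulin beside S100A8 and S100A9, had 1 count in TGF-β1, 18 in GSK126 and 45 in naive H1944 libraries. In A549, S100A3, which overlaps S100A4, stood at 10.7 ± 1.65 CPM under TGF-β1 and 21.4 ± 3.41 CPM in naive cells (−1.19 ± 0.25, adjusted p = 0.0016). S100A3 was too low for the test in H1944, with 0 counts in naive, 37 in GSK126 and 9 in TGF-β1 libraries. Of 31 genes of the epidermal differentiation complex and its flanks, which lie between S100A11 and S100A9 or beside the cluster, 8 were tested in H1944, and 0 rose and 5 fell under TGF-β1, a share of calls near the 63.7% of all genes, among them THEM4 (−0.88 ± 0.15), SLC27A3 (−1.04 ± 0.29; adjusted p = 0.052 without naive library C) and CHTOP (−0.40 ± 0.11).

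Over the 10 group means, S100A8, S100A9, S100A14 and S100P ran together. As a description over 10 points that share libraries and treatments, the Pearson correlation of log2(CPM + 1) was 0.983 between S100A9 and S100A14, 0.956 between S100A9 and S100P, 0.935 between S100A8 and S100A9 and 0.937 between S100A14 and S100P. It was 0.808 between S100A10 and S100A11, 0.799 between S100A10 and S100A16 and 0.737 between S100A4 and S100A6. S100A4 and S100A6, which fell with S100A9 under TGF-β1 in H1944, ran against it over all groups (−0.644 and −0.324). All these correlations take in the difference between the 2 lines as well as changes within a line. Group means of S100A4 were at least 231 CPM in A549 and at most 10.8 CPM in H1944. Those of S100A9 were at most 0.427 CPM in A549. S100A16 and S100P ran against each other (−0.858). Among 3224 genes that reached 10 CPM in some group and had a range of at least 2 on the log2 scale, the patterns most like that of S100A9 were those of HPD (0.992), CMBL (0.992) and SLC26A1 (0.99). HPD, the gene of a tyrosine-degrading dioxygenase, averaged 4.62 and 5.21 CPM in the high and low TGF-β1 gates, 798 and 769.9 CPM in the GSK126 gates and 2177 CPM in naive H1944 cells. The most alike were TACC2, FGFR3 and NQO2 for S100P (0.995, 0.993 and 0.992), HPRT1, PRTFDC1 and TSPAN31 for S100A4 (0.99, 0.988 and 0.983), CKS2, KRT4 and H2BC26 for S100A6 (0.99, 0.986 and 0.985), and SERPINH1, ENC1 and TRHDE for S100A2 (0.951, 0.95 and 0.948).

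Ranked by group mean, the levels of several members formed separate steps. S100A9 and S100P were highest in naive H1944 cells and next in the 2 GSK126 gates of H1944, and these steps did not overlap in any library. For S100A9 the TGF-β1 gates of H1944 (3.69 ± 0.892 CPM low, 2.09 ± 0.766 CPM high, n = 3 each) came next, clear of the A549 groups, of which the highest was GSK126 low at 0.427 ± 0.432 CPM. For S100P naive A549 cells (6.24 CPM) came next, above every H1944 TGF-β1 library; the A549 GSK126 gates (3.48 CPM high, 3.83 CPM low) overlapped the H1944 TGF-β1 gates (2.94 CPM high, 3.49 CPM low), and the A549 TGF-β1 gates (0.781 and 0.55 CPM) lay below. S100A4 had all 5 A549 groups (416 to 231 CPM) above all 5 of H1944 (10.8 to 1.23 CPM). S100A6 ran from 2056 CPM in naive A549 to 447 CPM in the TGF-β1 high gate of H1944, with the A549 TGF-β1 gates (651 and 613 CPM) among the H1944 groups. S100A10 spanned only 611 to 955 CPM over the 10 groups, and S100A11 only 211 to 376 CPM.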

How the data were processed

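The deposited values are raw counts of RNA reads per gene in 28 libraries, made by the authors from 10 ng of total RNA with a stranded pico-input kit, per the labels' protocols. The submitters' processing notes name bcl2fastq 2.20.0, STAR 2.6.0c, HTSeq 0.12.3 and GRCh38; the annotation, the strand setting and the handling of duplicates are not given in the sources used here, and no molecular identifiers are recorded. Of 60487 rows, 4 are reporter rows. They were kept in the library totals, and those past the filter entered the fits and the adjustment of p. The numbers and shares of all genes tested leave them out. Samples were grouped by line, treatment and gate from their labels.

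From these counts, CPM, edgeR 4.0.16 quasi-likelihood tests (R 4.3.3; TMM factors, filterByExpr, robust) and adjusted p-values over all genes tested by the Benjamini-Hochberg method (threshold 0.05) were computed in each line's fit with the gates averaged, and in a fit of both lines for the comparisons between lines. The residual degrees of freedom were 10 for H1944, 8 for A549 and 18 for both lines together. Errors are SD over libraries, or SE of a fitted log2 fold change. Ratios of CPM are of counts pooled over the libraries of a group and divided by their pooled totals. They can differ from ratios of the group means, and they carry exact 95% counting intervals. The test was also run on counts simulated with known changes and the same spread for every gene of a line. That setting lacks the differences in spread between genes, so it does not show how the test acts on these data. Alternatives were RLE factors, other filters on low counts, DESeq2 1.42.0, limma 3.58.1 (voom), a replicate block, single gates, 1 fit of all libraries, leaving out libraries and, added after the data were seen, library totals without TMM. Motifs were searched in the 250 bases before each RefSeq start, and bases after the start were not used.

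Libraries of the same letter were compared by the correlation of their deviations from the group means. In the GSK126 gates of H1944 every same-letter pair exceeded 0.1 (0.119, 0.182 and 0.138), and no label states a pairing. The TGF-β1 gates of A549 exceeded it too, at 0.131 (A) and 0.452 (C), where the low gate lacked library B. Pairs of different letters exceeded it in A549 as well, at 0.129 between TGF-β1 low A and high B. The value was 0.495 between TGF-β1 low A and naive C of A549. The reported tests treat all libraries as separate, and the replicate block was an alternative. If both gates came from the same culture, the tests of the gates together against naive cells count that culture more than once.

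The members and lists were chosen with earlier results of these data known. Genes named in the text are the members, and the list genes that passed with the smallest p-values, at most 3 per list and comparison; for 5 members, the 3 genes most alike in pattern over the groups are named as well. The values of 1 such list gene are not reported here.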

Additional observations from a re-analysis of the deposited data

Results flagged for a closer look

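The effects of a treatment differed between H1944 and A549, by edgeR's test of the difference of the 2 log2 fold changes (H1944 minus A549, adjusted over 17918 genes), for 6 results on these genes. Under GSK126, S100A4 differed by 2.03. Under TGF-β1, S100A2 differed by 2.75, S100A6 by 1.13, S100P by −2.12 and S100A14 by −5.53. The TGF-β1 difference of S100A8 was −12.41, a fitted value that rests on 1 count under TGF-β1 in H1944 and 0 counts in naive A549 cells. No group held enough libraries (at least 4) for a check of single outlying libraries.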

How the results depend on the processing

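Of 129 recomputed counts of called members that left out no single library, 115 stayed within 1.5 times the reported count. The count under GSK126 against naive cells in A549 (0 as reported) was 3 with DESeq2, 4 with limma-voom, 3 in a fit of all 28 libraries and 4 without the 2 background-rich libraries. Under TGF-β1 against naive cells in A549 (4) it was 2 in the low gate alone. Between the GSK126 gates of H1944 (1) it was 0 with no filter, 0 with a filter at 1 CPM, 0 in a fit of all 28 libraries, 2 with limma-voom, 2 with the replicate block and 3 with library totals. For the GSK126 effect between lines (1) it was 2 with DESeq2, 2 with limma-voom and 2 in the low gate alone, and S100A8 was the member added each time. The causes were not tested.

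Leaving out 1 library in turn gave 0 to 2 members under GSK126 and 3 to 4 under TGF-β1 against naive cells in A549, and 2 to 4 between these treatments. In H1944 it gave 6 to 8 under GSK126, 9 to 10 under TGF-β1, 9 to 10 between the treatments and 0 to 3 between the GSK126 gates. It gave 7 to 8 between naive lines, 1 for the GSK126 effect and 3 to 6 for the TGF-β1 effect between lines. The difference of S100A11 between naive lines, which did not pass (−0.04), ranged over −0.34 to 0.04 and so turned direction. KRT7 in H1944, lower under GSK126 (−0.39), was higher in the high gate alone (0.31). The cause was not tested.

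With the replicate letter as a block, the counts of called members other than that between the H1944 GSK126 gates stayed within 1.5 times. S100A16 in A549 under TGF-β1 (adjusted p = 0.0667) and between naive lines (adjusted p = 0.177) missed the threshold with the block. Whether libraries of the same letter belong together is not stated.

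Depth limits S100A8, S100A9 and S100A14 in A549 and S100A2 and S100A4 in H1944, whose groups hold few counts.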
